A study of Mus musculus with 9 samples.

Results

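Aminoacyl-tRNA synthetases are the enzymes that join each amino acid to its transfer RNA. The genes described here were the rows of the deposited counts table whose symbol is a capital letter followed by ars, with 1, 2 or no digit after it, together with Eprs, Farsa and Farsb. This rule found 37 of the 55487 genes: 18 for cytosolic enzymes, 17 for mitochondrial enzymes, and Gars and Kars, each of which makes both forms from 1 gene. All 37 were abundant enough to be tested, with 412 to 67764 counts in every library, among 16353 genes tested in all. In GENCODE M21 on the mouse build GRCm38 all 37 are protein coding.

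The RNA came from PT-22 cells, a mouse kidney line labelled as proximal tubule, with the genotype Pax2-/-, Pax8fl/fl, Rosa-CreERT2 in every group. Every group also carried Pax8-pTRIPZ, a doxycycline-inducible Pax8 construct, and was grown with 3% serum. Polyadenylated RNA was sequenced from 3 libraries of untreated cells at day 0, 3 at day 6 after 4-hydroxytamoxifen at 1 uM, and 3 at day 12 after later doxycycline at 1 ug/ml. The study asked what returning the transcription factor PAX8 after its loss does to gene expression. 4-hydroxytamoxifen switches on the Cre recombinase of this genotype; the labels give 2 days of it in one place and 6 days in another. The cells are 1 modified line, and the labels do not say whether libraries A, B and C of a day are separate cultures, so a p-value reflects only how far these libraries differ, and that spread may be technical. No vehicle control, untreated culture after day 0, or day 12 culture without doxycycline was analysed here, so time in culture, each drug and PAX8 cannot be told apart.

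A cell needs a synthetase for each amino acid in the cytosol and again inside its mitochondria, where a separate set of nuclear genes serves the few proteins that the organelle makes itself. In the cytosol 8 of these enzymes sit with scaffold proteins in the multisynthetase complex. Mitochondria charge glutamine transfer RNA by another route, a glutamyl enzyme followed by an amidotransferase, and the mitochondrial set has no glutaminyl member. When charged transfer RNA runs short, the kinase GCN2 slows translation and raises the transcription factor ATF4, which is known to raise many cytosolic synthetase genes through C/EBP-ATF response elements. Proximal tubule cells are known for high mitochondrial content and heavy amino acid transport.

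Between day 0 and day 6 the cytosolic and shared synthetase transcripts fell almost as a set, by modest amounts. The mitochondrial set fell less evenly, and 2 of its members, Lars2 and Pars2, rose. At day 12, on the scale of TMM-scaled counts used below, much of the mitochondrial set stood near its day 0 level and the cytosolic set below it; TPM placed both sets higher at day 12 than this scale did. No member changed 2-fold in any comparison, although 14.9% of all genes did between days 0 and 6.

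Because cytosolic members moved together, the start regions of the genes were searched for the C/EBP-ATF response element TGATGNAA on both strands. The RefSeq promoter table (GRCm38.p6, 250 bases before to 50 after each start) held 27 of the 37 genes. The element lay in 5 of them, all among the 13 cytosolic or shared genes, and in none of the 14 mitochondrial genes, against 4.51% of the 27025 genes in the table. A match describes letters only, and its use by a factor was not measured. The windows are shown because these 5 genes are among those described below. They read 5′ to 3′ on the gene's strand, and the capitals mark the element or its reverse complement. The element ends 22 bases before the start in Gars (chr6:55037945-55038000) and 7 before it in Tars (chr15:11399659-11399699). The copies shown for Aars (chr8:111033840-111033869), Iars (chr13:49682126-49682155) and Yars (chr4:129189895-129189924) lie just after the start.
Gars: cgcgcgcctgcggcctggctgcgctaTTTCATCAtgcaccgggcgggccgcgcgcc
Tars: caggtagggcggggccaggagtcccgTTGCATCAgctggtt
Aars: agcgggtcactTTTCATCAgagcgctctga
Iars: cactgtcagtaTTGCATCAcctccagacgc
Yars: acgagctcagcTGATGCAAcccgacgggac

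The 9 libraries held 56398623 to 86767334 counts. Values per library are CPM, counts divided by the library total and scaled by edgeR's TMM factors, and a gene is said to have risen or fallen when edgeR's quasi-likelihood test gave it a Benjamini-Hochberg adjusted p under 0.05 over all 16353 genes. Counts of mitochondrially encoded genes took 6.66% to 7.18% of a library at days 0 and 6 and 2.10% to 3.96% at day 12. Pax8 ran from 289 to 292 CPM at day 0, from 399 to 411 at day 6 and from 487 to 503 at day 12, and Pax2 from 30.4 to 34.6, 43.3 to 49.6 and 48.6 to 54.5. Neither was lower at day 6, but a count over a whole gene does not show a deleted exon, and no source used here names the deleted exons. Of 13 proximal tubule markers 7 were expressed well enough to test, 5 stayed under 0.2 CPM in every library, and 2 of those, Slc34a1 and Slc22a6, had no count. The summed level of these 13 markers ranged from 568 to 669 CPM at day 0, 449 to 488 at day 6 and 484 to 541 at day 12. These sums join members that moved in opposite directions: between days 0 and 6, 5 of the 7 tested fell, among them Lrp2 (mean 391 to 58.7 CPM) and Pdzk1 (1.28 to 0.0390 CPM), and Aqp1 (119 to 324 CPM) and Anpep (9.99 to 26.4 CPM) rose. Summed stromal markers ranged from 7.92 to 8.35, 6.39 to 6.83 and 10.8 to 12.9 CPM (3 of 6 tested), and immune markers from 16.7 to 19.0, 17.1 to 19.5 and 15.1 to 16.5 (3 of 6 tested, Cd3e at 0). Single stromal and immune markers also moved both ways between days 0 and 6: Dcn fell (4.92 to 0.44 CPM) and Pdgfrb rose (0.0762 to 2.45 CPM), while Ptprc fell (2.12 to 0.0299 CPM) and Lyz2 rose (0.34 to 2.77 CPM). Podocyte markers, nearly all from Podxl, ranged from 88.9 to 92.3, 64.7 to 69.0 and 69.9 to 71.1 CPM (3 of 4 tested). Endothelial, loop and collecting duct markers summed to less than 1 CPM in every library. The part of these markers in the results below was not tested, and in bulk RNA fewer cells of a type and less RNA per cell cannot be told apart.

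On TPM, the length-corrected scale that the authors deposited beside the counts, levels differed widely between synthetases. At day 0 Sars, for serine, was the most abundant cytosolic transcript at 569 ± 19.7 TPM (SD, n = 3), followed by Nars, for asparagine, at 220 ± 5.24. Gars, Kars, Tars and Rars came next at 158 ± 3.83, 144 ± 1.66, 140 ± 1.58 and 139 ± 5.97 TPM, with Rars within its spread of Tars and Kars. Wars, for tryptophan, was the least abundant of the cytosolic set at 44.5 ± 0.911 TPM. Mitochondrial transcripts ran from Mars2 at 1.16 ± 0.0794 TPM to Tars2 at 46.0 ± 0.484, a mean just above that of Wars, apart from Lars2 at 175 ± 8.59. Summed over the 18 cytosolic genes, TPM went from 2163 ± 25.4 at day 0 to 1656 ± 34.4 at day 6 and then to 2040 ± 67.0 at day 12. Over the 16 mitochondrial genes without Lars2 it was 235 ± 3.44, 201 ± 1.70 and 251 ± 5.73. Both of these sums were lowest at day 6, with no overlap between day 6 and either other day. With Lars2 included, the mitochondrial sum was instead lowest at day 0 and highest at day 6, at 411 ± 10.8, 513 ± 123 and 468 ± 55.7 TPM, and library C of day 6 alone stood at 655. TPM and TMM-scaled CPM part at day 12: the median gene stood 0.19 higher than at day 0 in log2(TPM + 1) and 0.03 higher on the main scale, and 0.16 and 0.01 higher than at day 6.

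Between day 0 and day 6, 19 of the 20 cytosolic and shared genes fell and none rose, with a median log2 fold change of -0.41. Of all tested genes 64.9% were called, 31.4% as falls and 33.5% as rises, and the median over all genes was 0.02. The largest fall was in Farsb, the beta subunit of the phenylalanyl enzyme. It stood at 63.1, 63.8 and 61.4 CPM in libraries A, B and C of day 0 and at 38.0, 38.4 and 36.8 at day 6, a log2 change of -0.73 ± 0.0329 (SE; adjusted p = 2.38e-11). Gars, for glycine, stood at 256, 259 and 251 CPM and then at 153, 157 and 153, also a log2 change of -0.73 ± 0.0294 (adjusted p = 6.7e-12). Neither gene's day 6 libraries came near those of day 0.

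Iars, which charges isoleucine, stood at 168, 170 and 167 CPM at day 0 and 105, 101 and 104 at day 6, a log2 change of -0.70 ± 0.0307. Nars went from 358, 358 and 342 to 226, 226 and 214 CPM (-0.67 ± 0.0327). Lars, for leucine, went from 242, 242 and 224 to 158, 155 and 150 CPM (-0.61 ± 0.0347). All 3 fell by more than the spread within a day, with no overlap of libraries. Aars, for alanine, stood at 493, 503 and 481 CPM at day 0 and 326, 334 and 321 at day 6 (-0.59 ± 0.0308); its annotated exons share 1326 bases with Exosc6 on the same strand, so its reads could be split between the genes. Mars1, for methionine, stood at 201, 198 and 197 CPM and then 132, 136 and 130 (-0.58 ± 0.0295). Eprs, a single protein that charges both glutamate and proline, stood at 360, 375 and 351 CPM and then 246, 239 and 245 (-0.58 ± 0.0313). The largest adjusted p among these 6 genes was 4.4e-10, in Lars.

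The other cytosolic falls were smaller, from -0.57 in Tars, -0.43 in Yars and -0.40 in Dars to -0.22 in Kars and -0.12 in Hars. In limma on log2(TPM + 1) the falls of Vars (-0.14, adjusted p = 0.0546) and Hars (-0.07, adjusted p = 0.131) missed the threshold. Qars, for glutamine, was the exception, at 71.9, 69.7 and 70.8 CPM on day 0 and 70.5, 70.7 and 69.1 on day 6. Its libraries overlapped between the days, and its log2 change was -0.01 ± 0.0297 (adjusted p = 0.689). Farsa, the alpha subunit of the phenylalanyl enzyme, fell by 0.32 on the log2 scale against 0.73 for the beta subunit with which it forms 1 tetramer. On TPM the ratio of Farsb to Farsa was 0.964, 1.06 and 0.957 at day 0, 0.752, 0.777 and 0.731 at day 6, and 0.864, 0.887 and 0.866 at day 12. The 3 days did not overlap; this pair was chosen after its values were seen, and an exact two-sided permutation test of 3 against 3 libraries cannot go below p = 0.1, the value each contrast gave.

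**Figure D1:**
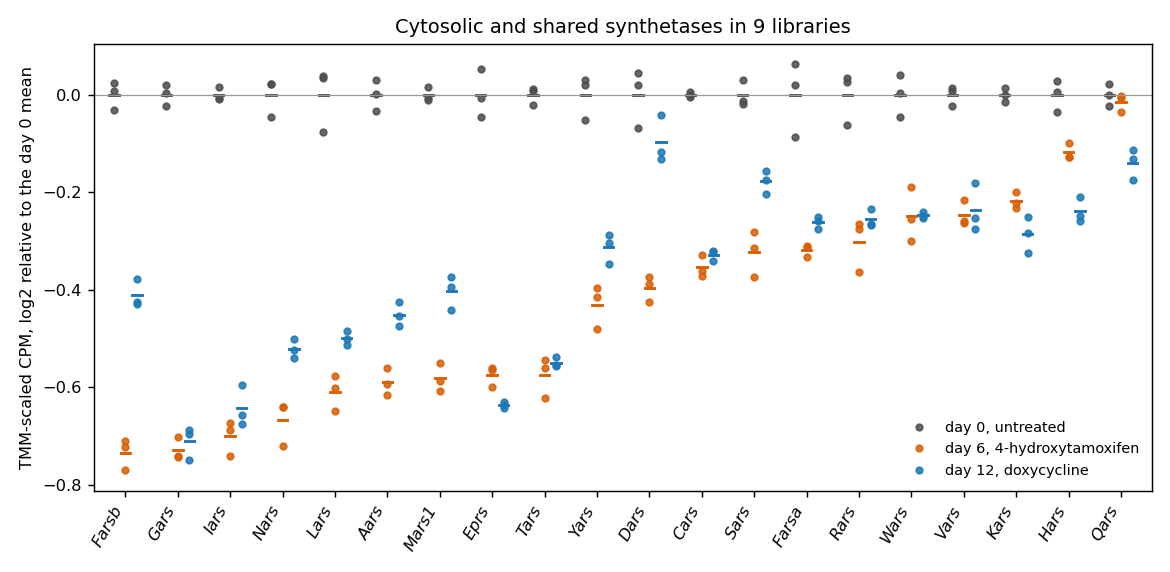
Level of each cytosolic or shared synthetase in every library, as TMM-scaled CPM on a log2 axis relative to the mean of day 0; points are libraries and short bars are means of 3. Farsb and Gars lie lowest at day 6 (-0.73), Qars does not separate at day 6, and Dars comes closest to its day 0 level at day 12.

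Of the 17 mitochondrial genes, 12 fell between day 0 and day 6, 2 rose and 3 were not called, with a median log2 change of -0.30. Over all tested genes, 31.4% fell and 33.5% rose, with a median of 0.02. Mars2, for methionine, went from 10.2, 10.3 and 9.17 to 6.37, 6.76 and 7.09 CPM (-0.56 ± 0.0747). Its day 6 libraries all lay under those of day 0. Vars2, for valine, went from 33.6, 31.6 and 33.2 to 24.0, 24.0 and 24.5 CPM (-0.44 ± 0.0386). Yars2, for tyrosine, went from 26.1, 28.4 and 25.8 to 19.6, 19.9 and 19.8 CPM (-0.44 ± 0.0468). Tars2, for threonine, went from 66.9, 66.2 and 65.2 to 51.1, 47.3 and 49.7 CPM (-0.42 ± 0.0345). These 3 also separated fully. Smaller falls ran from -0.41 in Aars2 to -0.20 in Iars2, and the one in Ears2 (-0.21, adjusted p = 0.0154) was lost without library C of day 0 (adjusted p = 0.0747) and in limma on log2(TPM + 1) (adjusted p = 0.128).

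Pars2, the mitochondrial prolyl enzyme, rose from 9.13, 8.04 and 8.25 CPM at day 0 to 11.1, 11.5 and 10.7 at day 6, by 0.39 ± 0.0613 (adjusted p = 4.39e-05). All its day 6 libraries were above all those of day 0. Eprs, which serves proline in the cytosol, fell over the same days, so that the log2 ratio of Eprs to Pars2 in CPM dropped by 0.97, from 5.42 ± 0.122 to 4.45 ± 0.0750 (SD, n = 3).

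**Figure D2:**
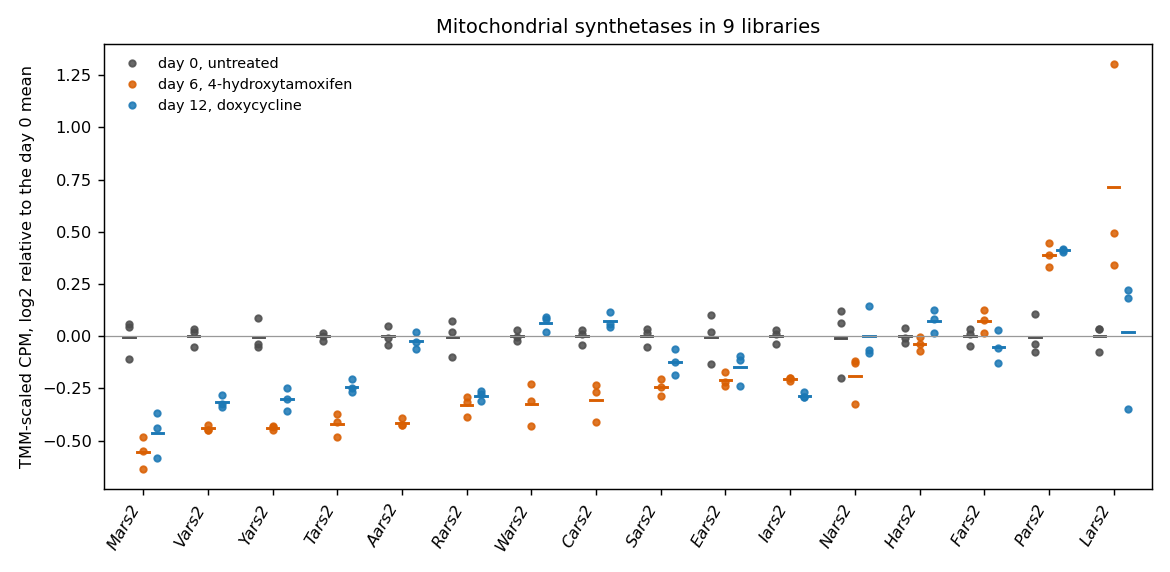
Levels of 16 mitochondrial synthetases in every library, as TMM-scaled CPM on a log2 axis relative to the mean of day 0; points are libraries and short bars are means of 3. Mars2 lies lowest of these at day 6, Pars2 is high at days 6 and 12, and 1 day 6 library of Lars2 stands far above the others.

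Lars2, the mitochondrial leucyl enzyme, was apart from the other members in its level and in its spread. It stood at 485, 485 and 449 CPM at day 0, 666, 599 and 1166 at day 6, and 537, 372 and 551 at day 12. Library C of day 6 was the highest of the 9, and day 6 lay above both other days. Lars2 rose by 0.78 ± 0.191 between days 0 and 6 (adjusted p = 0.00216) and fell by 0.74 between days 6 and 12 (SE 0.19, adjusted p = 0.00547). Without library C of day 6 these changes were 0.42 (adjusted p = 0.0058) and -0.38 (adjusted p = 0.0184). In limma on log2(TPM + 1) the later fall was not called (-0.48, adjusted p = 0.116).

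Several RNAs that do not encode proteins were also highest in that library. Rmrp, the RNA of RNase MRP, stood at 6.80, 5.01 and 15.8 CPM at day 6, Rn7sk at 44.8, 34.4 and 81.8, and Rpph1, the RNA of RNase P, at 3.86, 3.05 and 8.90. The mitochondrial ribosomal RNA mt-Rnr1 stood at 1052, 938 and 1518 CPM, and the nuclear RNA Malat1 at 1915, 1453 and 2395. These 5 genes were chosen after their values were seen, and their part in the level of Lars2 was not tested.

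**Figure D3:**
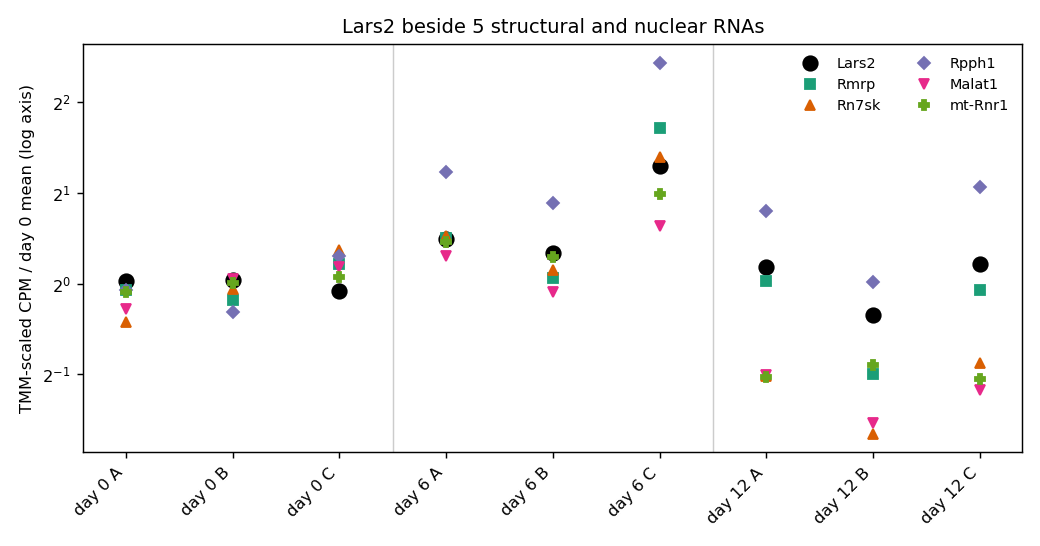
Lars2 and 5 structural or nuclear RNAs in each of the 9 libraries, as TMM-scaled CPM divided by the gene's day 0 mean, on a log2-spaced axis. Library C of day 6 is the highest library for all 6 RNAs, at 1166 CPM for Lars2.

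Between day 6 and day 12, 8 of the 20 cytosolic and shared genes rose and 2 fell, against 22.6% and 22.7% of all genes (45.3% either way). The median log2 change was 0.05. Farsb stood at 46.6, 48.3 and 46.8 CPM at day 12, a log2 change of 0.32 ± 0.0333 (adjusted p = 2.09e-06). Dars, for aspartate, went from 126, 127 and 123 CPM at day 6 to 152, 150 and 160 (0.30 ± 0.0355, adjusted p = 8.41e-06). Day 12 was above day 6 in every library of both genes. Mars1 at day 12 stood at 153, 146 and 151 CPM (0.18 ± 0.0296), and Nars at 245, 249 and 242 (0.15 ± 0.0327). Sars went from 450, 461 and 432 CPM to 496, 502 and 486 (0.14 ± 0.0326), and Aars stood at 366, 359 and 355 (0.14 ± 0.0308). The day 12 libraries of these 4 genes also lay above those of day 6.

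The 2 smallest rises, in Yars (0.12) and Lars (0.11), each lost the call without 1 library. Without library C of day 6 the adjusted p was 0.0630 for Yars and 0.0875 for Lars, and without library A of day 12 it was 0.0509 for Lars. Hars, for histidine, and Qars fell by 0.12 each on the main scale but were 0.09 and 0.11 higher in log2(TPM + 1). Of the cytosolic genes not called, Gars (0.02) and Tars (0.02) moved least on the main scale among the members that had fallen by more than 0.5. In limma on log2(TPM + 1) both were called higher at day 12, by 0.23 (adjusted p = 0.000248) and 0.14 (adjusted p = 0.00251). Eprs and Kars stood at -0.06 and -0.07 on the main scale but 0.15 and 0.14 higher in log2(TPM + 1), and Kars was called lower without library B of day 12 (-0.09, adjusted p = 0.0341). With all 9 libraries DESeq2 called both lower (adjusted p = 0.0474 for Eprs and 0.0266 for Kars). Kars was also called lower in edgeR with median-of-ratios factors (adjusted p = 0.0365) and in limma on median-centred TPM (adjusted p = 0.0406).

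Of the 17 mitochondrial genes, 7 rose between day 6 and day 12 and 2 fell, with a median log2 change of 0.12. Over all tested genes, 22.6% rose and 22.7% fell, with a median of 0.01. Aars2 went from 12.6, 12.3 and 12.3 CPM at day 6 to 15.9, 16.3 and 16.8 at day 12 (0.39 ± 0.0478). Wars2, for tryptophan, went from 12.1, 11.5 and 10.5 to 14.4, 15 and 15.1 CPM (0.38 ± 0.0559). In both genes every day 12 library exceeded every day 6 library. Cars2 (0.37), Tars2 (0.18), Yars2 (0.14) and Vars2 (0.13, but -0.06 on log2(TPM + 1) centred on each library's median gene) also rose.

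Some of these calls were lost when 1 library was left out. Yars2 lost its call without any 1 of libraries A, B and C of day 6 or B and C of day 12 (adjusted p 0.0528 to 0.104), and Vars2 without library B of day 12 (adjusted p = 0.0617). In DESeq2 with all 9 libraries Yars2 was not called either (adjusted p = 0.0694). The falls were in Lars2 and in Iars2 (-0.08, adjusted p = 0.0305). Iars2 lost its call without any 1 of the day 6 libraries or libraries A and B of day 12 (adjusted p 0.0566 to 0.0837), and stood 0.16 higher in log2(TPM + 1).

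Day 12 and day 0 were then set side by side; this comparison shares its libraries with the previous ones. All 20 cytosolic and shared genes were lower at day 12, with a median log2 change of -0.32, where 31.7% of all genes were lower and 34.7% higher (66.4% either way). Gars was furthest from day 0, at 152, 158 and 159 CPM against 256, 259 and 251 (-0.71 ± 0.0294, adjusted p = 1.28e-11). Iars, at 111, 105 and 107 CPM, was at -0.64 ± 0.0305. Eprs, at 233, 234 and 232 CPM, was at -0.64 ± 0.0313. None of the day 12 libraries of these genes reached the day 0 range. Tars went from 366, 365 and 358 CPM at day 0 through 246, 249 and 236 at day 6 to 247, 247 and 250 (-0.55 ± 0.0299), and Nars and Lars were at -0.52 and -0.50, with Lars at 169, 165 and 167 CPM. Dars was nearest to day 0 (-0.10, adjusted p = 0.025), overlapped it, and lost its call without library A or B of day 0 or A or B of day 12 (adjusted p 0.0814 to 0.121) and with upper-quartile scaling (adjusted p = 0.117).

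The scale decides part of this count. DESeq2, which also works on counts, and edgeR with median-of-ratios factors each had 20 lower as well. With upper-quartile factors 19 were lower. In log2(TPM + 1), 10 of the 20 were lower than at day 0 and 1, Dars, was higher (0.16), and Hars, Qars, Sars and Vars had changes of 0.02, 0.06, 0.02 and 0.06. The 6 genes just described other than Dars were lower on both scales. With each library centred on its median gene, an alternative chosen after seeing the data, no cytosolic gene had the opposite sign. That setting placed genes lower in general. Its median log2 change over all genes was -0.10, against 0.03 on the main scale, and 35.6% of its calls were higher. It therefore favours negative signs and cannot decide between the scales.

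Of the mitochondrial genes, 6 of 17 were lower at day 12 than at day 0 and 1 was higher, with a median log2 change of -0.05. The share of falls was thus near the 31.7% of all genes called lower, and 34.7% of all genes were called higher. Mars2 stood at 7.68, 6.62 and 7.31 CPM (-0.46 ± 0.0738, adjusted p = 5.58e-05), Vars2 at 26, 27 and 26.2 (-0.31 ± 0.0382) and Yars2 at 20.9, 21.8 and 22.5 (-0.30 ± 0.0463). All were below the day 0 libraries. Rars2 (-0.28), Iars2 (-0.28, but 0.04 in log2(TPM + 1)) and Tars2 (-0.24) were the others. Most mitochondrial genes had larger standard errors than the cytosolic ones, which bears on how many were called. On the main scale Ears2 (-0.15 ± 0.0691) and Sars2 (-0.12 ± 0.0548) were not called, while cytosolic Qars (-0.14 ± 0.0297) was. Pars2, at 11.3, 11.2 and 11.3 CPM, stayed above day 0 by 0.41 ± 0.0609 (adjusted p = 2.75e-05). In log2(TPM + 1) none of the 17 was lower and 9 were higher. Aars2 (-0.02), Wars2 (0.06) and Cars2 (0.07) were not called on the main scale, but in limma on log2(TPM + 1) all 3 were called higher than at day 0, by 0.17 (adjusted p = 0.0333), 0.36 (adjusted p = 0.000681) and 0.32 (adjusted p = 0.00251).

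Only Nars2, Hars2 and Fars2, for asparagine, histidine and phenylalanine, were called in no comparison on the main scale. Their CPM over all 9 libraries ranged from 7.21 to 9.98 for Nars2, 18.3 to 21 for Hars2 and 16.6 to 19.8 for Fars2. Their changes between days 0 and 6 were -0.18, -0.04 and 0.07. Single libraries bore on each of them: Nars2 was called lower at day 6 without library C of day 0 (-0.28, adjusted p = 0.0116), and without library C of day 12 Hars2 was called higher (0.14, adjusted p = 0.0300) and Fars2 lower (-0.16, adjusted p = 0.0259) than at day 6. Fars2 was also called lower than at day 6 without library A of that day (-0.16, adjusted p = 0.0469). The scale bore on them as well. In limma on log2(TPM + 1) Fars2 was called higher at day 6 than at day 0 (0.27, adjusted p = 0.00278), and still so with each library centred on its median gene (0.19, adjusted p = 0.0200), which also called it lower at day 12 than at day 6 (-0.31, adjusted p = 0.00300). Median-of-ratios factors in edgeR likewise called Fars2 lower at day 12 than at day 6 (-0.14, adjusted p = 0.0412). Hars2 was called higher at day 12 than at day 0 with upper-quartile factors (0.11, adjusted p = 0.0452) and in log2(TPM + 1) (0.20, adjusted p = 0.0163), and higher than at day 6 with both (0.15 and 0.23). Nars2 was called higher at day 12 in log2(TPM + 1) against day 0 (0.32, adjusted p = 0.0365) and day 6 (0.46, adjusted p = 0.00848), and with no filter on low counts it was called lower at day 6 than at day 0 (-0.19, adjusted p = 0.0306) and higher at day 12 than at day 6 (0.19, adjusted p = 0.0478). In log2(TPM + 1) Fars2 was also called higher at day 12 than at day 0 (0.17, adjusted p = 0.0271). Hars2 and Hars lie head to head on opposite strands and share 195 exon bases. In all, 14 of the 37 genes share exon bases with a gene on the opposite strand, among them Iars2 with Rab3gap2 (2034 bases), and whether reads were counted by strand is not stated in the sources used here.

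**Figure D4:**
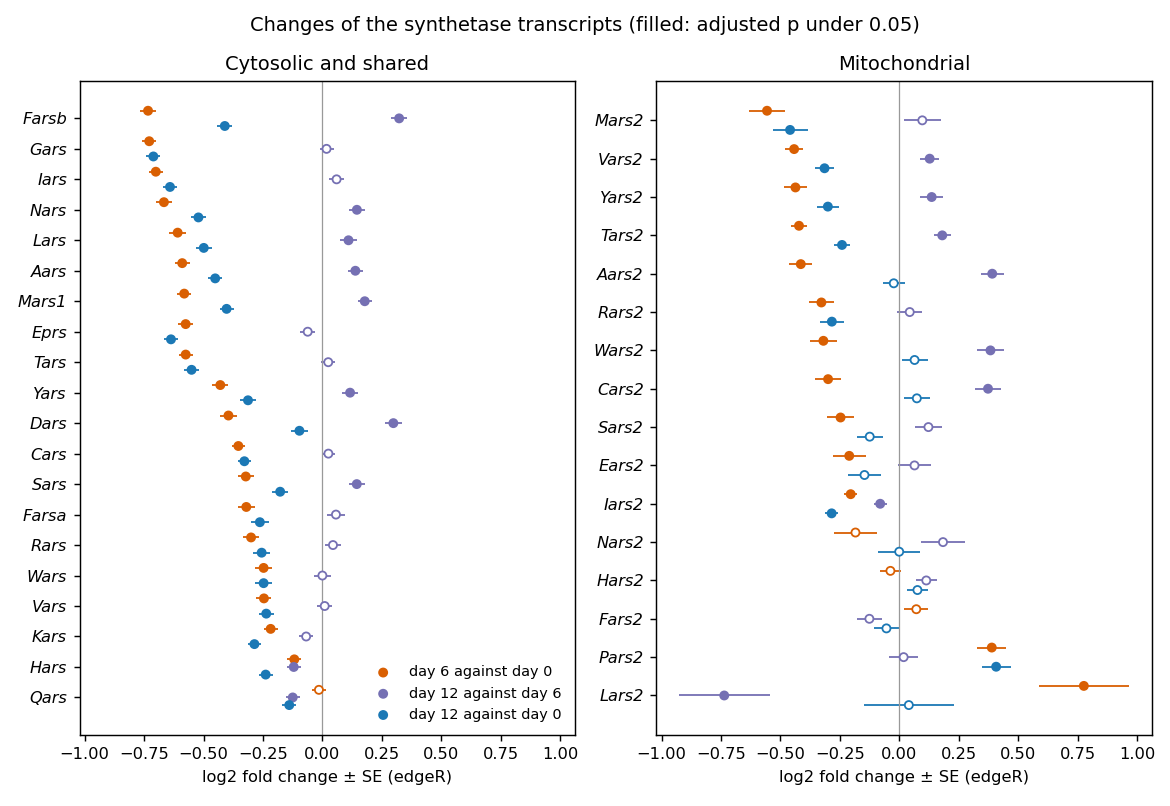
Log2 fold change with its standard error from the edgeR fit for 36 synthetases in the 3 comparisons; filled points passed an adjusted p of 0.05. On this TMM-based scale the cytosolic points for day 12 against day 0 all lie left of 0, while Aars2, Wars2 and Cars2 lie near 0 in that comparison; in log2(TPM + 1) Dars, Aars2, Wars2 and Cars2 were higher than at day 0.

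Setting the cytosolic form against the mitochondrial form for the same amino acid removes the scale, because both are divided by the same library size. Over 18 such pairs the median change of the log2 ratio was -0.12 between days 0 and 6, -0.06 between days 6 and 12 and -0.31 between days 0 and 12. The pairs are not all separate, since Eprs was set against both Ears2 and Pars2, and Fars2 against both Farsa and Farsb. For valine the mean log2 ratio was 0.19 higher at day 6 than at day 0. For isoleucine the log2 ratio of Iars to Iars2 was 0.47, 0.56 and 0.49, then 0.03, -0.03 and 0.03, then 0.21, 0.13 and 0.12. Day 6 was the lowest and day 12 stayed under day 0. For alanine the log2 ratio fell at each step, from a mean of 4.89 ± 0.0709 through 4.72 ± 0.0355 to 4.46 ± 0.0634 (SD, n = 3), with no overlap between days. For tyrosine the log2 ratio stayed at 2.43 ± 0.0561, 2.44 ± 0.0486 and 2.42 ± 0.0380, and the pairs for arginine, serine and methionine also overlapped between all days. No p is given, since an exact test of 3 against 3 libraries cannot go below 0.1.

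**Figure D5:**
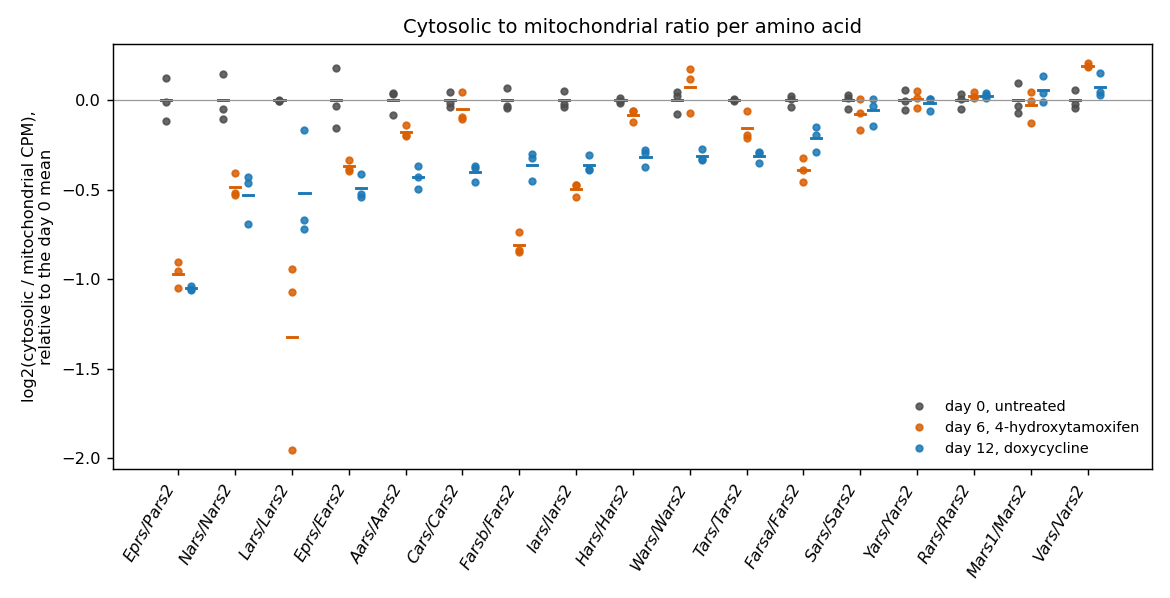
Log2 ratio of cytosolic to mitochondrial CPM for 17 pairs of genes, relative to its day 0 mean; points are libraries and short bars are means of 3. Eprs to Pars2 lies lowest at day 12 (mean change -1.05), the mean of Vars to Vars2 is 0.19 above 0 at day 6, and Rars to Rars2 and Yars to Yars2 stay near 0.

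The members were also counted by complex, by structural class and by reported response to ATF4. Of all tested genes 31.4% fell and 33.5% rose between days 0 and 6, and 22.7% fell and 22.6% rose between days 6 and 12. Against day 0, 31.7% were lower and 34.7% higher at day 12. The 8 synthetases of the multisynthetase complex had 7 falls and no rise between days 0 and 6, 3 rises and 1 fall between days 6 and 12, and 8 lower members at day 12 against day 0, where Dars and Qars had the opposite sign in log2(TPM + 1). The 12 cytosolic and shared genes outside the complex had 12 falls between days 0 and 6. Class I enzymes, whose catalytic fold and side of attachment to the transfer RNA differ from class II, had 16 falls and 1 rise of 18 at day 6, and class II had 14 falls and 1 rise of 18. The 13 synthetases described in the literature as raised by ATF4 all fell between days 0 and 6 (median -0.58), and 6 of the 7 other cytosolic genes fell (median -0.30). Between days 6 and 12, 6 of those 13 rose and none fell, with a median of 0.06.

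The 17 genes listed as partners of the synthetases had 16 falls and 1 rise between days 0 and 6. They include scaffolds, editing factors and users of the charged product, and also Sephs2 and Tarsl2, described below. For the lists from here on, 31.4% of all tested genes were lower and 33.5% higher at day 6 than at day 0, 22.7% lower and 22.6% higher at day 12 than at day 6, and 31.7% lower and 34.7% higher at day 12 than at day 0. Sephs2, which makes the selenium donor for selenocysteine, fell by 0.59, and Eef1e1, a scaffold of the multisynthetase complex, fell by 0.76. Gatc, a subunit of the amidotransferase that makes mitochondrial glutaminyl-tRNA, fell by 0.79, and Aarsd1, an editing factor for alanyl-tRNA, fell by 0.66. The other scaffolds of the complex, Aimp1 and Aimp2, are named to complete it and fell by 0.31 and 0.35. Between days 6 and 12, 12 of the 17 rose and none fell, led by Tufm, the mitochondrial elongation factor (0.32), Aarsd1 (0.50), Gatb (0.35) and Dtd1 (0.30). Against day 0, 10 were lower at day 12 and 2 were higher, of which Aimp1, Eefsec and Aarsd1 had the opposite sign in log2(TPM + 1), with Gatc at -0.75, Eef1e1 at -0.52, Tarsl2, a threonyl-tRNA synthetase paralog, at -0.50 and Sephs2 at -0.41.

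The amino acid response, the pathway that ATF4 drives, was described with 25 genes, of which 22 fell and 2 rose between days 0 and 6 (median -0.73). Atf4 itself stood at 586, 574 and 538 CPM at day 0, 357, 381 and 344 at day 6, and 383, 396 and 405 at day 12. Day 0 was the highest throughout, the log2 change to day 6 was -0.65 ± 0.0425 (adjusted p = 2.29e-09), and that from day 6 to day 12 was 0.13 (adjusted p = 0.0218). Slc7a5, which imports large neutral amino acids, fell from 116, 119 and 117 CPM to 44.2, 44.7 and 44.1, by 1.40 on the log2 scale. Asns, asparagine synthetase, fell by 1.49, Mthfd2, an enzyme of mitochondrial folate metabolism, fell by 1.32, and Nupr1, a stress regulator, rose by 1.26. Nupr1 and Ddit4 were the 2 genes of the list that rose.

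Between days 6 and 12, 15 of the 25 rose and 3 fell, although 2 of those falls, in Slc1a5 and Ddit4, had the opposite sign in log2(TPM + 1). Slc3a2, the partner chain of Slc7a5, rose by 0.70, Atf3 by 1.03, Atf5 by 0.62 and Mthfd2 by 0.51. At day 12, 19 were lower and 5 higher than at day 0, of which Chac1 and Sesn2 had the opposite sign in log2(TPM + 1), with Slc7a5 at -1.29, Asns at -1.13, Slc7a1, an importer of cationic amino acids, at -0.93 and Nupr1 at 0.98.

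Genes that set the phosphorylation of the initiation factor eIF2, which lies upstream of ATF4, had 4 falls and 2 rises among 7 between days 0 and 6, where 64.9% of all genes were called, 31.4% as falls and 33.5% as rises. Ppp1r15a, a subunit of the eIF2 phosphatase, fell by 1.00 and Eif2ak3, the kinase PERK, by 0.52. Eif2ak4, the kinase GCN2, rose by 0.45 and Eif2ak2, the kinase PKR, by 0.30. Between days 6 and 12 the changes were 0.50 in Ppp1r15a, 0.10 in Eif2ak3, -0.19 in Eif2ak4 and -0.39 in Eif2ak2, all 4 called, though Eif2ak4 was 0.01 higher in log2(TPM + 1). At day 12, 5 of the 7 were lower and 1 higher than at day 0, Eif2ak2 and Gcn1 with the opposite sign in log2(TPM + 1), and Ppp1r15a, Eif2ak3, Ppp1r15b and Eif2ak4 stood at -0.50, -0.41, -0.33 and 0.27.

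Wars, the cytosolic tryptophanyl enzyme, is known as a gene raised by interferon gamma. It stood at 85.4, 83.2 and 80.4 CPM at day 0, 67.4, 72.8 and 69.6 at day 6, and 69.7, 69.9 and 70.3 at day 12, and was called lower than day 0 on both later days. The day 12 call was lost in limma on log2(TPM + 1), where the change was -0.00833 (adjusted p = 0.861): on days 0, 6 and 12 Wars averaged 44.5, 37.9 and 44.3 TPM. Of 8 other interferon gamma genes tested, 7 rose and none fell between days 0 and 6. Gbp2 and Gbp3, guanylate-binding proteins, rose by 2.02 and 1.84, the chemokine Cxcl10 by 1.40 and Irf1, a transcription factor, by 0.71. Between days 6 and 12 Cxcl10, Gbp3, Gbp2 and Irf1 fell by 1.01, 0.77, 0.53 and 0.41. At day 12 all 8 were above day 0, with Gbp2 at 1.48, Gbp3 at 1.07, Psmb8, a subunit of the immunoproteasome, at 0.93 and Irf1 at 0.30.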

How the data were processed

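RNA-seq was analysed from 9 libraries in 3 groups of 3. The authors deposited 2 tables, whole-number counts (raw) and TPM. The submitters' processing notes list RSEM 1.3.3, STAR 2.7.8a, FastQC 0.11.8, cutadapt 2.3 and GRCm38, without saying what each did; the annotation and the strand setting are not stated there. Counts made by RSEM would be rounded estimates. 4 transgene rows (0.00204% to 0.00284% of a library) were left out. After filterByExpr and TMM scaling, edgeR 4.0.16 tested each gene (R 4.3.3; quasi-likelihood, 1 fit of all 9 libraries, Benjamini-Hochberg over 16353 genes). Each SE was derived from the F statistic. Cytosolic to mitochondrial ratios used TMM-scaled CPM.

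The members and lists were chosen with earlier results of these data known. Values per library are given for the called members with the largest changes (up to 8 cytosolic and 6 mitochondrial at day 6, and 6 and 4 in the other comparisons), and up to 4 genes of each other list by smallest adjusted p; further names are marked; 1 mitochondrial member and 1 promoter window are not reported here. The alternatives were DESeq2 1.42.0, other scaling factors, no filter, only the groups compared, limma 3.58.1 on log2(TPM + 1) and log2(TPM + 0.1), a replicate block and leaving out each library; limma on median-centred TPM was added after seeing the data. The scripts were tested on simulated data. No pair of libraries held identical counts. Letters A, B and C did not pair the libraries (same-letter correlations of deviations -0.0929 to 0.125).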

Additional observations from a re-analysis of the deposited data

How the results depend on the processing

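Between days 0 and 6 none of 36 synthetases changed direction under any alternative where the main fit or the alternative called it. Changes of sign called in neither were not counted. With DESeq2, other scaling factors or only the groups compared, 36 of 36 calls were the same. The replicate block, fitted although the letters did not pair the libraries (3 of 9 libraries correlated best with their own letter), left every count of called synthetases as it was, with 19 cytosolic falls at day 6, and 36 of 36 member calls the same in each comparison. Depth did not keep any member from being tested.

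The TPM scale moved the day 12 comparisons, and its part in the biology was not tested. In log2(TPM + 1) the share of called genes that were higher was 90.1% at day 12 against day 6 and 81.4% against day 0, where the main scale gave 49.97% and 52.3%; upper-quartile factors gave 60.5% and 56.5%, and median-centred TPM, added after seeing the data, gave 36.3% and 35.6%. Cytosolic counts on TPM + 1 and TPM + 0.1 alike were 18 higher and 0 lower at day 12 against day 6, and 1 higher and 10 lower against day 0; mitochondrial counts were 13 higher and 0 lower, and 9 higher and 0 lower. Against day 6, DESeq2 gave 4 cytosolic falls, and upper-quartile factors and no filter gave 1 mitochondrial fall each; upper-quartile factors gave 2 mitochondrial genes higher than at day 0.

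The cytosolic median log2 change was, with TPM + 1, TPM + 0.1 and centred TPM, -0.37, -0.37 and -0.44 at day 6, and -0.077, -0.078 and -0.36 at day 12 against day 0. At day 12 against day 6 it was 0.25 and 0.26 on TPM and 0.0896 with upper-quartile factors, which gave -0.29 against day 0. The mitochondrial median was -0.18, -0.20 and -0.25 at day 6, 0.23, 0.28 and 0.0254 at day 12 against day 6, and 0.17, 0.18 and -0.12 against day 0; upper-quartile factors gave 0.16 and -0.0188 for the later comparisons.

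Directions that reversed on TPM + 1 and TPM + 0.1 at day 12 against day 0 included Aars2 (0.17 and 0.18), Dars (0.16 and 0.16), Fars2 (0.17 and 0.18), Hars (0.0189 and 0.0192), Iars2 (0.0407 and 0.0417), Nars2 (0.32 and 0.38), Qars (0.0624 and 0.0633), Sars (0.0247 and 0.0247), Sars2 (0.14 and 0.16) and Vars (0.0614 and 0.0619). Against day 6 they were Eprs (0.15 and 0.16), Hars (0.0883 and 0.0895), Iars2 (0.16 and 0.16), Kars (0.14 and 0.14) and Qars (0.11 and 0.11). On centred TPM only Vars2 reversed among changes called on the main or the centred scale, against day 6 (-0.0643). Changes of sign in genes called on neither scale were not counted as reversals.

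With each library left out in turn, the cytosolic counts ranged from 19 to 19 falls at day 6, 6 to 8 rises and 2 to 3 falls at day 12 against day 6, and 19 to 20 lower against day 0. Mitochondrial counts ranged from 12 to 12 falls and 2 to 2 rises, then 5 to 7 rises and 1 to 3 falls, then 6 to 8 lower and 1 to 1 higher. Cytosolic medians ranged from -0.44 to -0.39, 0.04 to 0.06 and -0.33 to -0.31, mitochondrial medians from -0.34 to -0.27, 0.10 to 0.14 and -0.0921 to -0.0349, and the pair ratio from -0.16 to -0.11, -0.09 to -0.04 and -0.33 to -0.30.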
